A study of Mus musculus with 18 samples.

Results

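The genes of the proteasome were followed in heart, kidney and liver of mice fed a ketogenic diet, against mice fed chow. Members were all genes whose symbol starts with Psma, Psmb, Psmc, Psmd, Psme, Psmf or Psmg and a digit, which gave 49 of the 22609 genes in the count files, and the immunoproteasome genes Psmb8, Psmb9 and Psmb10 were set apart from the constitutive subunits. Messenger RNA was sequenced from wild-type C57BL/6J mice in 6 groups of 3 libraries: ketogenic heart, ketogenic kidney, ketogenic liver, chow heart, chow kidney and chow liver. Feeding began at 4 weeks of age and lasted 21 days, and the ketogenic feed held 90% fat, 9.7% protein and 0.3% carbohydrate. The labels do not say of which sex the mice were, or whether the organs came from the same animals. All groups carry the wild-type genome, so diet is the only labelled difference within an organ.

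The proteasome degrades proteins that carry ubiquitin chains. Its 20S core is a barrel of alpha rings around beta rings, and the beta subunits Psmb5, Psmb6 and Psmb7 hold the cutting sites. The 19S cap recognises, unfolds and feeds in the substrate, with a ring of Psmc ATPases and a set of Psmd subunits. Under interferon, Psmb8, Psmb9 and Psmb10 take the places of Psmb5, Psmb6 and Psmb7 in newly built cores, which favours peptides for MHC class I display. In liver, heart and kidney most proteasomes are of the constitutive kind.

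In liver, 29 of the 48 members tested were higher on the ketogenic diet and 0 were lower. All 14 genes of the constitutive 20S core were called higher. Of all tested liver genes of the same transcript lengths 36.2% were called higher. With a trend on transcript length taken out, 8 of the 14 core genes kept the call. In heart 1 of 48 members passed the test, Psmb5, which was lower, and in kidney 0 of 47 did. The 29 liver genes have to be read against a liver in which 36.8% of the 13220 tested genes were called, 19.2% of them higher and 17.6% lower. In heart 12.1% of 13609 tested genes were called, and in kidney 9.05% of 14526. A member was called at an adjusted p under 0.05 in edgeR's quasi-likelihood test, with the Benjamini-Hochberg adjustment over all genes tested in the organ.

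**Figure D1:**
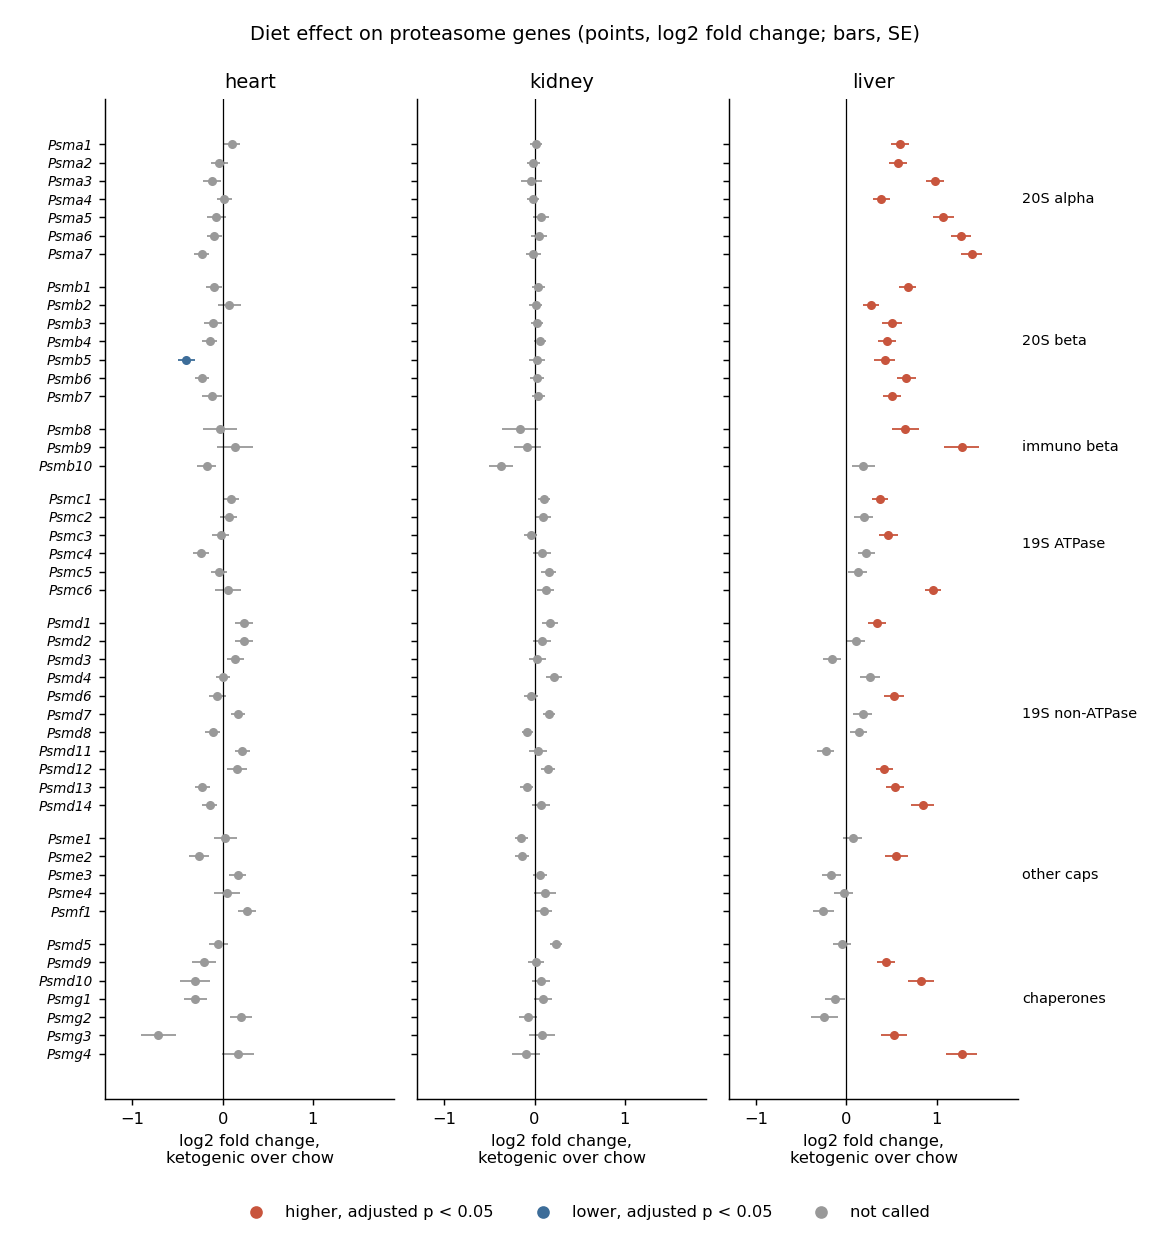
Log2 fold change, ketogenic over chow, of 46 proteasome genes in heart, kidney and liver, grouped by role; points are edgeR estimates, bars 1 SE, and colour marks the called genes. In liver all points of the 20S core, the 19S ATPases and the immunoproteasome genes lie to the right of 0 and the other groups lie on both sides, while in heart and kidney the points crowd around 0.

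Total counts ran between 16135276 and 23835383 per library. Ketogenic replicates 1 and 2 of heart, and likewise of liver, differed by little more than counting noise: the median chi-square per gene was 0.666 and 0.698, against 0.455 for counting alone and 1.23 to 4.20 for the other pairs of a group. Each of these 2 pairs was counted as 1 sample, so n was 2 ketogenic and 3 chow samples in heart and liver, and 3 and 3 in kidney. Nothing states how separately the animals were handled, so p-values measure the spread between these samples. The heart, kidney and liver marker lists were high in their own organs, with lowest values of a marker of 3549, 151 and 2262 CPM. Chow heart replicate 3 stood apart: the atrial light chain Myl7 was at 1940 CPM there, against at most 17.3 CPM in the other 5 heart libraries, and the fat marker Plin1 at 41.1 CPM. In liver 2 of 5 fat markers were tested, and each was higher on the ketogenic diet (log2 fold changes 5.60 and 10.4). Of the 5 liver markers 1 was higher and 2 lower there, against 19.2% and 17.6% of all tested liver genes. In kidney all 5 fat markers had log2 fold changes above 0 (median 2.06) and 0 were called. The part of these markers in the member values was not tested. Ketogenic kidney replicate 1 differed more from replicates 2 and 3 (median chi-square 3.05 and 4.20) than these did from each other (1.68). Levels below are CPM, counts relative to the TMM-scaled library size, or TPM, counts per summed exon length relative to the library total, which alone was used between genes. In bulk tissue fewer cells of a type and less RNA per cell cannot be told apart.

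Not every member is a working subunit in these organs. Psmb11, the beta subunit of thymic epithelium, was at 0 in 16 of 18 libraries with at most 1 count, and was not tested. Psma8, the alpha subunit of testis, stayed between 0.273 and 1.53 CPM. Psmc3ip matches the naming rule but encodes a recombination protein, and it was at or below 4.80 CPM. The remaining 46 genes spanned 3.12 to 589 CPM in heart, 5.30 to 327 CPM in kidney and 3.22 to 227 CPM in liver, with at least 48 counts in each library.

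In liver, the 7 alpha genes of the 20S core, which form the outer rings and gate the barrel, were all higher. Psma7 had 155, 165 and 126 CPM in ketogenic livers, against 54.9, 57.8 and 51.8 CPM in chow livers. The ketogenic livers were all above the chow livers, and the log2 fold change was 1.39 ± 0.11 (SE; n = 2 and 3; adjusted p = 9.91e-06, edgeR). Psma6 had 171, 168 and 138 CPM in ketogenic livers, against 61.7, 67.3 and 63.1 CPM in chow livers, a log2 fold change of 1.27 ± 0.11. These were the 2 largest rises of the core, and in both genes ketogenic replicate 3 was lower than the near-identical replicates 1 and 2.

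Psma5 had 87.3, 88.6 and 68.0 CPM in ketogenic livers, against 38.2, 38.9 and 34.5 CPM in chow livers, with a log2 fold change of 1.07 ± 0.12. Psma3 had 141, 145 and 125 CPM in ketogenic livers, against 65.2, 70.0 and 68.7 CPM in chow livers, with a log2 fold change of 0.98 ± 0.10. Neither gene overlapped between the diets. The other 3 alpha genes rose by less: the log2 fold change was 0.60 for Psma1, 0.57 for Psma2 and 0.39 for Psma4.

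The 7 constitutive beta genes were higher too, over a narrower range. Psmb1, a structural beta subunit, had 125, 125 and 117 CPM in ketogenic livers, against 74.8, 78.4 and 73.8 CPM in chow livers, with a log2 fold change of 0.68 ± 0.09. Of the catalytic genes, Psmb6, the caspase-like site, had 147, 146 and 126 CPM in ketogenic livers, against 88.0, 90.0 and 80.1 CPM in chow livers (log2 fold change 0.66 ± 0.10). Psmb7, the trypsin-like site, had a log2 fold change of 0.51 ± 0.10, and Psmb5, the chymotrypsin-like site, of 0.42 ± 0.11. Psmb5 had 85.7, 73.8 and 66.3 CPM in ketogenic livers, against 60.6, 52.8 and 50.7 CPM in chow livers, so the lowest ketogenic library lay closer to the highest chow library than for Psmb6. Without chow liver 2 the adjusted p of Psmb5 was 0.0511 (edgeR) and the call ended.

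Psmb3, Psmb4 and Psmb2, structural beta subunits, had log2 fold changes of 0.51, 0.45 and 0.27. Psmb2 was the smallest rise of the core, with 56.0, 56.1 and 55.5 CPM in ketogenic livers, against 47.5, 46.4 and 44.7 CPM in chow livers (adjusted p = 0.0367, edgeR). The call for Psmb2 ended without a filter, in a single model of all groups, without chow liver 2 or chow liver 3, and with the length-trend offset described below. Leaving out ketogenic liver 3 left 1 ketogenic sample, so that setting is not counted here. Over the 14 genes the median log2 fold change was 0.59, against 0.01 over all tested liver genes. All 14 were higher in each ketogenic liver than in any chow liver, which held for 28.9% of all tested genes; 27.9% were lower in each, so 56.7% did not overlap.

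**Figure D2:**
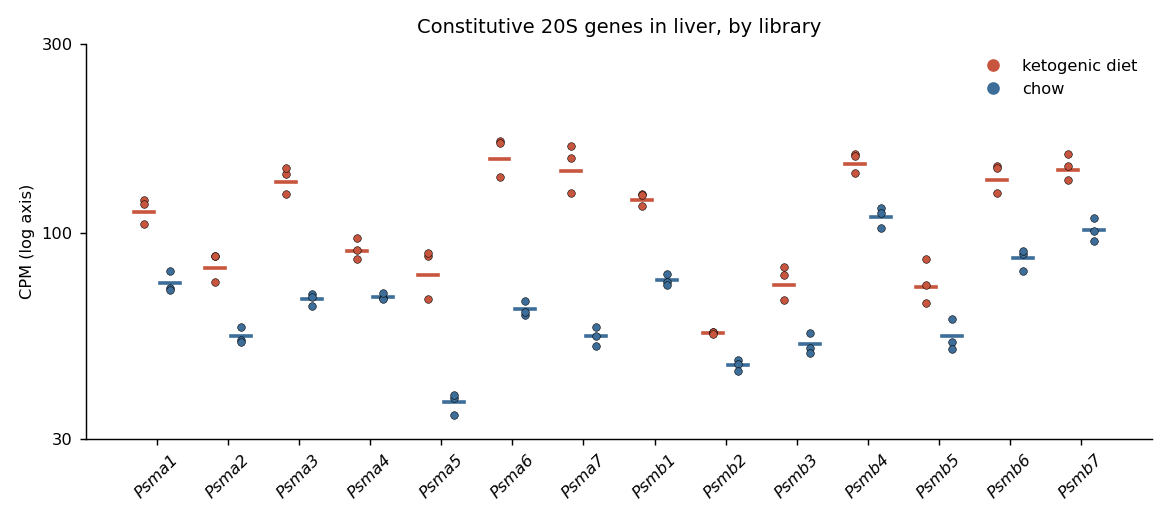
CPM on a log axis of the 14 constitutive 20S genes in each liver library, ketogenic left and chow right; points are libraries and bars are group means with the near-identical pair counted once. For each gene the 3 ketogenic points lie above the 3 chow points, with the widest gap at Psma7 and the narrowest at Psmb5.

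Summed per length, the 14 core genes stood at 2878, 2817 and 2705 TPM in ketogenic livers, against 1958, 2015 and 1983 TPM in chow livers, a ratio of 1.40. The 17 genes of the 19S cap summed to 1741, 1737 and 1787 TPM in ketogenic livers, against 1712, 1645 and 1666 TPM in chow livers, a ratio of 1.05. In TPM the sums of the core are far apart between the diets, and those of the cap are close, with the lowest ketogenic value just above the highest chow value. In CPM, the scale of the calls, both were apart. The mean log2 CPM of the cap was 6.593, 6.623 and 6.509 in ketogenic livers, against 6.341, 6.231 and 6.18 in chow livers. That of the core was 6.824, 6.819 and 6.615, against 6.065, 6.056 and 5.974. TPM divides by length, and a trend with length is described below.

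The promoters of 3 genes are shown because they carry the contrasts above: Psma7 had the largest rise of the core, and Psmb6 and Psmb9 are the constitutive and inducible subunits of the same site. The sequences are RefSeq windows on GRCm38.p6, 250 bases before to 50 after the start, on the strand of the gene, and capitals mark the motif named. For Psma7 (chr2:180042415-180042714, minus strand) and Psmb9 (chr17:34187281-34187580, minus strand) capitals mark the GC box GGGCGG on either strand. For Psmb6 (chr11:70525107-70525406, plus strand) they mark the antioxidant response element core TGACNNNGC, the kind of site bound by NRF1 and NRF2. The Psmb6 window also holds the GC box, which is left unmarked there.
Psma7: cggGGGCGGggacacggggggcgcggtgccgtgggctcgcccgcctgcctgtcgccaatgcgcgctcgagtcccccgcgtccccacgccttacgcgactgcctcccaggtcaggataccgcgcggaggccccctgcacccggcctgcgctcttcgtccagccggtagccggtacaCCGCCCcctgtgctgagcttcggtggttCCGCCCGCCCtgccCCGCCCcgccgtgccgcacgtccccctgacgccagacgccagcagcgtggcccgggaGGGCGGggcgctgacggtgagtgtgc
Psmb6: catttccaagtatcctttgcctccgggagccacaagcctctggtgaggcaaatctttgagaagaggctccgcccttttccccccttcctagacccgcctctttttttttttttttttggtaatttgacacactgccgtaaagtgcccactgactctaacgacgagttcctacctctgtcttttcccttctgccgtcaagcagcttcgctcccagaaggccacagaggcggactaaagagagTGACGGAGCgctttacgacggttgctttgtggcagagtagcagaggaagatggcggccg
Psmb9: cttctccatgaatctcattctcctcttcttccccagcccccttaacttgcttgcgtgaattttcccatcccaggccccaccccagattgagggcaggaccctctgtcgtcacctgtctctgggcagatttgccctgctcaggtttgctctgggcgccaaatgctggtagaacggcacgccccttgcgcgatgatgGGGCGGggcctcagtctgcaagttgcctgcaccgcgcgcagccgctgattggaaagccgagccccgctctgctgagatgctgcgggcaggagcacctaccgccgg

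Windows were found for 41 members, and a gene with several windows was counted once, if any of them held the motif. The antioxidant core was in 6 of them (Psmb5, Psmb6, Psmc6, Psmd9, Psmd12 and Psme4), or 14.6%, against 14% of 27025 genes with a window. The GC box was in 23 of 41, or 56.1%, against 38.2%, and the CCAAT box in 15 of 41, or 36.6%, against 41.1%. GAAANNGAA, a shortened form of the interferon-stimulated response element, was in 7 of 41 (Psmb3, Psmb4, Psmc2, Psmd4, Psmd9, Psme1 and Psmg4), or 17.1%, against 9.76%. The STAT motif TTCNNNGAA was in 3 of 41 (Psmb8, Psmd2 and Psmg1), or 7.32%, against 9.55%. Of the 11 core genes with a window, 2 held the antioxidant core (Psmb5 and Psmb6) and 5 the GC box. All motifs were searched on both strands and no overlap between motifs was removed. The Psmb9 window shares 275 bases with that of Tap1, the peptide transporter gene on the opposite strand.

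In the mm9 annotation of the files Psmb9 spans chr17:34319044-34324275 on the minus strand and Psmb8 chr17:34335140-34338399 on the plus strand, both in the MHC region. Of the immunoproteasome genes in liver, Psmb9 and Psmb8 rose and Psmb10 was not called. Psmb9 had 31.5, 28.5 and 19.2 CPM in ketogenic livers, against 9.03, 11.8 and 9.88 CPM in chow livers, a log2 fold change of 1.28 ± 0.20 (adjusted p = 0.00149, edgeR). Psmb8 had 32.6, 30.7 and 23.9 CPM in ketogenic livers, against 17.4, 20.5 and 15.5 CPM in chow livers, a log2 fold change of 0.65 ± 0.15 (adjusted p = 0.00702, edgeR). In both genes the diets did not overlap, and the near-identical replicates 1 and 2 were above replicate 3. Psmb10 had 32.6, 33.8 and 27.3 CPM in ketogenic livers, against 23.5, 28.4 and 28.2 CPM in chow livers, with overlap and a log2 fold change of 0.19 ± 0.13 (adjusted p = 0.263, edgeR).

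Of 26 leukocyte markers, 23 were tested in liver, and 5 were higher (Ptprc, H2-Aa, Cd3d, S100a8 and S100a9) and 0 lower, against 19.2% and 17.6% of all tested liver genes. The log2 fold change was above 0 for 17 of the 23 and below 0 for 6, and no marker was at 0 in all liver libraries. Their summed level was 519 to 840 TPM in ketogenic livers, against 545 to 647 TPM in chow livers, so the ranges overlapped, and ketogenic replicate 3 was the lowest of all. The myeloid gene Lyz2, which was not called (adjusted p = 0.108, edgeR), had 123, 118 and 48.9 CPM in ketogenic livers, against 33.3, 39.0 and 28.1 CPM in chow livers. Their part in the rise of Psmb8 and Psmb9 was not tested.

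Against the subunit that each replaces, the immunoproteasome genes stayed below a TPM ratio of 1 in all libraries. In liver the TPM ratio of Psmb9 to Psmb6 was 0.275, 0.251 and 0.196 on the ketogenic diet, against 0.132, 0.169 and 0.159 on chow, without overlap (log2 difference 0.58). The ratio of Psmb8 to Psmb5 was 0.270, 0.296 and 0.257 on the ketogenic diet, against 0.204, 0.276 and 0.217 on chow (log2 difference 0.23). The ratio of Psmb10 to Psmb7 was 0.168, 0.164 and 0.153 on the ketogenic diet, against 0.164, 0.215 and 0.226 on chow (log2 difference -0.33), so it overlapped. The exact two-sided permutation tests gave p = 0.2 for Psmb9, 0.4 for Psmb8 and 0.4 for Psmb10, and 2 samples against 3 cannot give less than 0.2.

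Outside liver the ratios of Psmb8 and Psmb9 were lower. In heart Psmb9 to Psmb6 was 0.0917, 0.0834 and 0.0765 on the ketogenic diet, against 0.0737, 0.0656 and 0.0530 on chow, with no overlap (log2 difference 0.37, exact permutation p = 0.2). In heart Psmb8 to Psmb5 was 0.161, 0.169 and 0.130 on the ketogenic diet, against 0.126, 0.109 and 0.110 on chow (log2 difference 0.35, exact permutation p = 0.2). In kidney Psmb10 to Psmb7 was 0.0852, 0.0873 and 0.0841 on the ketogenic diet, against 0.128, 0.0965 and 0.117 on chow (log2 difference -0.40, exact permutation p = 0.1, the smallest that 3 against 3 can give). The diets were apart in those 3 ratios and overlapped in the other 3 of heart and kidney, with log2 differences between -0.19 and -0.06. Adjusted over the 9 ratios, no exact permutation p was below 0.45.

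**Figure D3:**
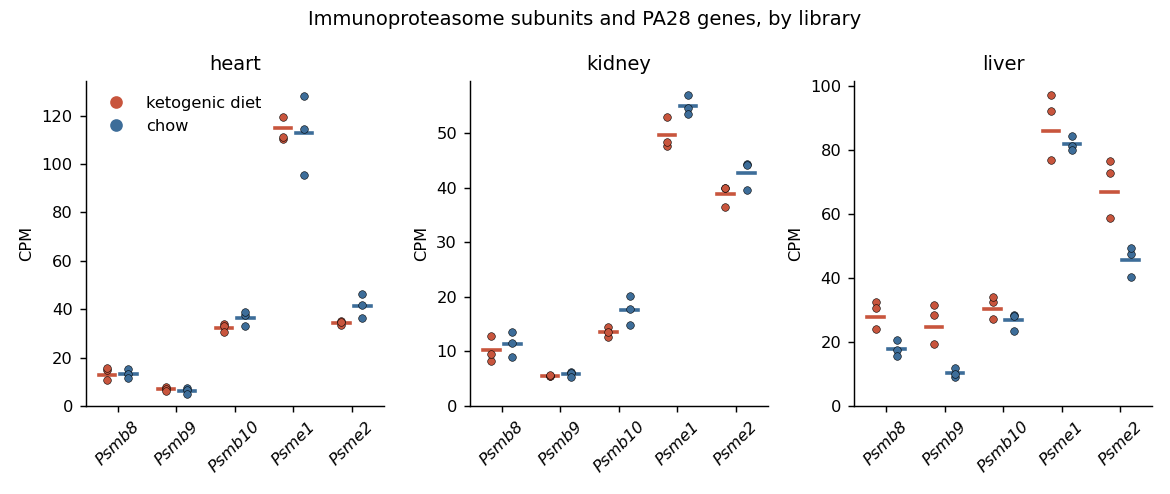
CPM of Psmb8, Psmb9, Psmb10, Psme1 and Psme2 in each library, ketogenic left and chow right, in heart, kidney and liver; bars are group means. In liver Psmb8, Psmb9 and Psme2 separate by diet, while Psmb10 and Psme1 overlap.

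The 19S cap moved in part. Of its 17 genes 8 were higher in liver and 0 lower, with a median log2 fold change of 0.26. Among the 6 ATPases, which unfold the substrate, Psmc6 had 96.8, 97.6 and 91.2 CPM in ketogenic livers, against 50.2, 48.8 and 46.6 CPM in chow livers, the largest rise of the cap (log2 fold change 0.96 ± 0.09, adjusted p = 2.63e-05, edgeR). Psmc3 and Psmc1 also rose, with log2 fold changes of 0.47 and 0.37. Psmc2, Psmc4 and Psmc5 were not called and had log2 fold changes of 0.19, 0.22 and 0.12.

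Among the 11 non-ATPase genes, Psmd14, the enzyme that cuts off ubiquitin chains, had 75.0, 80.0 and 60.6 CPM in ketogenic livers, against 40.0, 41.7 and 33.8 CPM in chow livers (log2 fold change 0.85 ± 0.13). Psmd13, Psmd6, Psmd12 and Psmd1, scaffold subunits, rose with log2 fold changes of 0.54, 0.53, 0.42 and 0.34. The call for Psmd1 ended without chow liver 2 or chow liver 3 (adjusted p = 0.0806 and 0.0665, edgeR). Psmd4, a ubiquitin receptor, and Psmd2, a large scaffold, had log2 fold changes of 0.26 and 0.11 and were not called, like Psmd7 and Psmd8. Psmd3 and Psmd11 were the 2 cap genes with values below 0: Psmd11 had 103, 104 and 102 CPM in ketogenic livers, against 126, 112 and 124 CPM in chow livers (log2 fold change -0.23, adjusted p = 0.0830, edgeR). The ketogenic livers were below the chow livers in both, without a call.

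Of the other caps, Psme2, a subunit of the PA28 activator that interferon induces, rose with a log2 fold change of 0.55 ± 0.13. It had 76.3, 72.7 and 58.7 CPM in ketogenic livers, against 47.4, 49.2 and 40.2 CPM in chow livers. Its partner Psme1 averaged 85.7 ± 12.6 CPM in ketogenic livers and 81.8 ± 2.27 CPM in chow livers (SD, n = 2 and 3), which overlapped (log2 fold change 0.07). Psme3, Psme4 and Psmf1, an activator of the nucleus, the PA200 activator and an inhibitor, had log2 fold changes of -0.17, -0.03 and -0.26 and were not called.

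Of the 7 genes that help to assemble the complex, 4 rose in liver. Psmg4, a chaperone of the alpha ring, had 9.37, 10.1 and 7.93 CPM in ketogenic livers, against 3.22, 3.90 and 3.88 CPM in chow livers, a log2 fold change of 1.28 ± 0.17. Its partner Psmg3 had 9.62, 9.84 and 9.49 CPM in ketogenic livers, against 7.17, 6.08 and 6.86 CPM in chow livers (0.52 ± 0.14), and its call ended without chow liver 2 (adjusted p = 0.0506, edgeR). The cap chaperones Psmd10 and Psmd9 had log2 fold changes of 0.83 and 0.44, while Psmd5 was at -0.05 and not called. Psmg1 and Psmg2, the other pair that works on the alpha ring, were not called, with log2 fold changes of -0.13 and -0.24, so the 2 pairs stood on opposite sides of 0.

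Transcript length moved with the liver result. Over all tested liver genes the median log2 fold change was 0.50 for transcripts of up to 700 bases and -0.12 for those over 6000 bases, and core genes are short, 731 to 1420 bases. Among the 1617 tested genes of that length span 36.2% were called higher, with a median of 0.26, against 14 of 14 core genes with a median of 0.59. Among genes of the lengths of the 19S cap 19.4% were higher, and of the assembly genes 25.9%, and of the immunoproteasome genes 36.6%. The difference between the median deviations of short and long transcripts was 0.32, 0.38 and 0.09 (log2) in ketogenic livers, against -0.24, -0.25 and -0.30 in chow livers. The extraction protocol gives an RNA integrity number above 4 as its limit.

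With a lowess trend on length taken out of each sample, 21 members were higher and 3 lower. Over all liver genes 4846 of 13220 were then called, 48.1% of them higher. Of the core 8 of 14 genes were called, and the median log2 fold change of the core was 0.32. The alpha genes Psma1, Psma2, Psma3, Psma5, Psma6 and Psma7 and the beta genes Psmb1 and Psmb6 were still called. Psma7 was then at 1.03 ± 0.09, Psma6 at 0.97 ± 0.09, Psma5 at 0.86 ± 0.10 and Psma3 at 0.83 ± 0.08 (log2). The core genes that lost the call were Psma4, Psmb2, Psmb3, Psmb4, Psmb5 and Psmb7, and Psmb2 changed sign to -0.095. All 8 cap genes kept the call, as did Psmb9 at 0.87 and Psmb8 at 0.44, while Psme2 and Psmg3 lost it and Psmd11, Psmg1 and Psmg2 were called lower. This alternative was chosen after the trend had been seen.

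**Figure D4:**
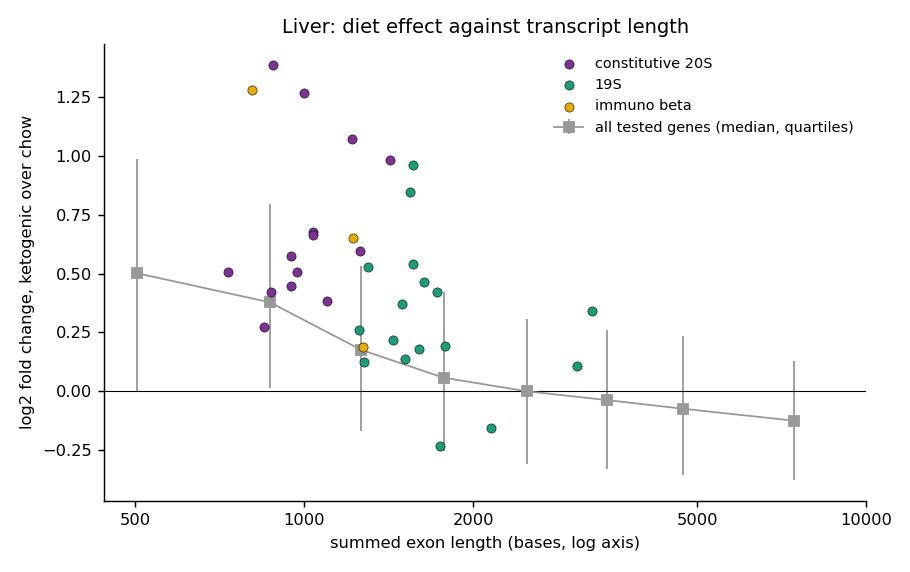
Log2 fold change in liver, ketogenic over chow, against summed exon length on a log axis; grey squares are medians of all tested genes by length with quartiles, and points are the 14 core, 17 cap and 3 immunoproteasome genes. Psma7, Psma6, Psma5 and Psma3 lie above the upper quartile of genes of like length, while Psmb2, Psmb5 and Psmb3 lie within the quartiles.

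Around the complex, 1 of 6 liver genes of ubiquitin supply rose and 2 fell, against 19.2% and 17.6% of all tested liver genes. The gene that rose was Rps27a, which encodes ubiquitin fused to a ribosomal protein (log2 fold change 1.37), and the activating enzyme gene Uba1 was among those that fell (-0.32). Of 10 partner genes 4 rose and 0 fell: Pomp, the maturation factor of the core, at 0.72, Zfand2a at 0.72, Txnl1 at 0.35 and the deubiquitinase Usp14 at 0.33. Pomp averaged 91.3 ± 2.09 CPM in ketogenic livers (SD, n = 2) and 55.4 ± 5.01 CPM in chow livers (SD, n = 3).

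Nfe2l1, which encodes NRF1, the factor known to drive proteasome genes when activity falls short, was not called in liver, where it had 120, 132 and 153 CPM on the ketogenic diet, against 152, 133 and 142 CPM on chow. Ngly1, the glycanase needed to activate NRF1, rose (0.44), and the other 4 genes of that list were not called. Of 6 tested NRF target genes Gclc (-0.94) and Srxn1 (-0.34) fell and 0 rose. Of the 10 genes of p97 and the shuttle proteins, Ubqln1 (-0.58) and Ubqln4 (-0.47) fell and Faf1 (0.29) rose. Among 11 antigen processing genes Calr (-0.67) and Tapbp (-0.50) fell and 0 rose, and Tap1, which shares its promoter region with Psmb9, had a log2 fold change of 0.24 and was not called. Of 12 genes of interferon signalling Irf7 (0.69), Irf9 (0.41) and Ifngr2 (0.30) rose and 0 fell. Of 5 tested ubiquitin ligases known from muscle atrophy, Nedd4 fell (-0.33). These counts stand against 19.2% of all tested liver genes called higher and 17.6% called lower. All values in brackets are log2 fold changes.

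In heart 0 of 48 members were higher and 1 was lower, against 6.25% and 5.81% of all tested genes. At an unadjusted p under 0.05 (edgeR) there were 13 members, 5 of them higher. The share of all tested genes at that looser threshold is not given here, so this count has no background to be read against. Psmb5, the chymotrypsin-like site, had 64.9, 66.0 and 59.0 CPM in ketogenic hearts, against 86.2, 85.3 and 75.6 CPM in chow hearts. The diets did not overlap, and the log2 fold change was -0.40 ± 0.10 (adjusted p = 0.0417, edgeR). DESeq2 and limma-voom also called Psmb5 alone. The call ended with the length-trend offset, in a single model of all groups, and when chow heart 1 or chow heart 2 was left out. Leaving out ketogenic heart 3 left 1 ketogenic sample, and the log2 fold change was then -0.33.

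The heart core leaned down as a set, like genes of its length, and apart from Psmb5 without calls. Of the 14 core genes, Psmb5 included, 11 had a log2 fold change below 0. The median was -0.10, against -0.03 over all tested genes and -0.12 over genes of like length. With the length-trend offset the median of the core was 0.026. Psmb6 had 112, 108 and 106 CPM in ketogenic hearts, against 129, 129 and 124 CPM in chow hearts, without overlap (log2 fold change -0.23, adjusted p = 0.0902, edgeR). Psma7 had 70.4, 72.9 and 74.0 CPM in ketogenic hearts, against 89.9, 85.8 and 81.4 CPM in chow hearts (-0.23, adjusted p = 0.111, edgeR). The summed core stood at 2583, 2625 and 2677 TPM in ketogenic hearts, against 2925, 2870 and 2701 TPM in chow hearts.

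The scaling bears on this lean. With total counts alone as the scale, the median of all heart genes moved to -0.17, and 24.4% of the called genes were higher in place of 51.8%. At that scale 8 members were lower, and 1899 of 13609 heart genes were called. In chow heart replicate 3 the core sum was the lowest of the chow hearts. Without that library 8 members were called lower (Psmb5, Psmb6, Psmb7, Psma7, Psmc4, Psme2, Psmg1 and Psmg3) and 0 higher. Over all heart genes 3742 of 13384 were then called, 49.5% of them higher, against 1642 of 13609 with all libraries. Psmg3 had 3.58, 3.30 and 3.12 CPM in ketogenic hearts, against 4.92, 5.66 and 5.68 CPM in chow hearts (log2 fold change -0.71, adjusted p = 0.0554, edgeR with all libraries).

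The 19S cap of the heart had no call in 17 genes and a median log2 fold change of 0.06. Psmd2 had 271, 271 and 265 CPM in ketogenic hearts, against 232, 244 and 206 CPM in chow hearts, above without overlap (0.24, adjusted p = 0.158, edgeR). Psmd1, Psmd7 and Psmd11 were also above without overlap, while Psmc4, Psmd8, Psmd13 and Psmd14 were below without overlap. Over all tested heart genes 44.4% did not overlap, so 8 of 17 is close to that share. The immunoproteasome genes overlapped: the log2 fold change was -0.03 for Psmb8, 0.14 for Psmb9 and -0.18 for Psmb10.

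Outside the complex some genes of the other lists were called in heart, where 12.1% of all tested genes were called. Nfe2l1 had 1034, 1020 and 966 CPM in ketogenic hearts, against 533, 572 and 501 CPM in chow hearts, without overlap (log2 fold change 0.90 ± 0.11, adjusted p = 0.00441, edgeR). Nfe2l2, which encodes NRF2, rose by less (0.30, adjusted p = 0.0487, edgeR), and the other 3 genes of the list were not called. Fbxo32, the atrogin-1 ubiquitin ligase of muscle, had 282, 278 and 330 CPM in ketogenic hearts, against 207, 212 and 198 CPM in chow hearts (0.57, adjusted p = 0.0158, edgeR). Fbxo30 rose as well (0.38), and the other 5 ligases were not called. Of 11 antigen processing genes H2-K1 rose (0.48) and Pdia3 fell (-0.38), and of 12 interferon genes Nlrc5, the activator of MHC class I genes, rose (1.14).

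Of the ubiquitin supply, partner, p97 and NRF target lists of the heart, 0 of 6, 0 of 10, 0 of 10 and 0 of 6 tested genes were called. Of 26 leukocyte markers 16 were tested in heart, and 3 were higher (H2-Aa, H2-Ab1 and Cd74) and 6 lower (Lyz2, Csf1r, C1qa, C1qb, C1qc and Emr1), against 6.25% and 5.81% of all tested heart genes. Their summed level was 846 to 991 TPM in ketogenic hearts, against 981 to 1089 TPM in chow hearts, and their part in the heart values was not tested.

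In kidney 0 of 47 tested members were called higher or lower, against 3.59% and 5.45% of all tested genes. At an unadjusted p under 0.05 (edgeR) there were 4, 2 of them higher, again without the share of all genes. limma-voom called 0 as well, and DESeq2 called 1, Psmc3ip, which is no subunit. The 14 core genes stayed within log2 fold changes of -0.04 and 0.07, with a median of 0.03. Psma7 had 111, 112 and 114 CPM in ketogenic kidneys, against 123, 103 and 114 CPM in chow kidneys, a log2 fold change of -0.01 ± 0.08. The core sum was 2777, 2720 and 2734 TPM in ketogenic kidneys, against 2771, 2767 and 2670 TPM in chow kidneys, and the ranges overlapped.

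The 17 cap genes of the kidney ranged between -0.08 and 0.22 (log2), with the highest at Psmd4. Psmd5, a cap chaperone, had 52.4, 49.5 and 53.3 CPM in ketogenic kidneys, against 44.2, 43.9 and 43.8 CPM in chow kidneys, without overlap (log2 fold change 0.24, adjusted p = 0.0646, edgeR). Psmb10 had 12.7, 14.4 and 13.6 CPM in ketogenic kidneys, against 20.2, 14.8 and 17.8 CPM in chow kidneys, without overlap (-0.37, adjusted p = 0.107, edgeR). Psmb8 and Psmb9 overlapped, at -0.16 and -0.08. Without ketogenic replicate 1, Psmd1 was called higher and Psmc3ip lower. Over all kidney genes 3402 of 14717 were then called, against 1314 of 14526 with all libraries.

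Around the kidney complex, 2 of 11 antigen processing genes rose, H2-K1 (0.37) and H2-D1 (0.40), and 1 of 12 interferon genes, Ciita, the activator of MHC class II genes (1.06). Over all tested kidney genes 3.59% were called higher. Of the partner, NRF control, ubiquitin supply, p97, ligase and NRF target lists 0 genes were called. Leukocyte markers summed to 614 to 836 TPM in ketogenic kidneys, against 464 to 516 TPM in chow kidneys, with 4 of the 16 tested higher (Itgax, H2-Aa, H2-Ab1 and Cd74) and 1 lower (Cd8a), against 3.59% and 5.45% of all tested kidney genes. Values in brackets are log2 fold changes.

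**Figure D5:**
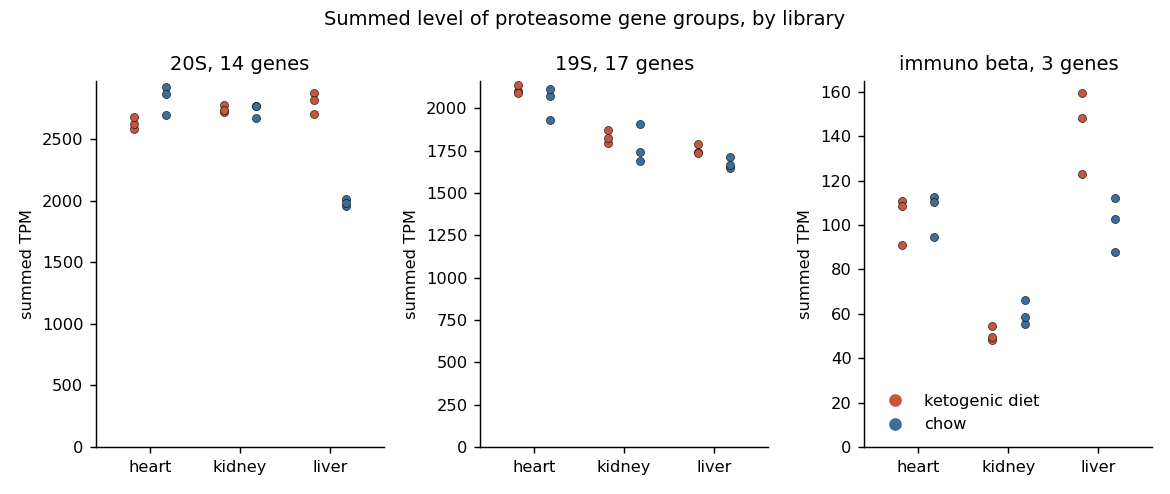
Summed TPM of the 14 core genes, the 17 cap genes and the 3 immunoproteasome genes in each library, ketogenic left and chow right, in heart, kidney and liver, with axes that start at 0. The chow livers hold the lowest core sums, 1958 to 2015 TPM, and the ketogenic livers lie at 2705 to 2878 TPM, in the range of heart and kidney.

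The difference of the diet effects between organs was tested in a model of all groups. Between heart and liver 27 of 48 members differed, against 23.5% of 15695 tested genes, 24 of them lower in heart minus liver. Between kidney and liver 22 members differed, against 21.8%, 21 of them lower in kidney minus liver. Between heart and kidney 0 differed, against 2.50%. At an unadjusted p under 0.05 (edgeR) there were 5, without the share of all genes at that threshold. The core supplied 12 of the 27 and 12 of the 22. With the length-trend offset 15 members differed between heart and liver, against 3313 of 15695 tested genes. Of the core there were 6 (Psma3, Psma5, Psma6, Psma7, Psmb1 and Psmb6), and Psmd11, Psmf1 and Psmg2 had positive differences. Between kidney and liver 12 differed with that offset, against 3020 of 15695 tested genes. Of the core there were 4 (Psma3, Psma5, Psma6 and Psma7), and Psmd5 and Psmg1 had positive differences.

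Psma7 had the smallest p and the largest difference of the members in both pairs: the difference of log2 diet effects was -1.58 ± 0.15 for heart minus liver and -1.37 ± 0.14 for kidney minus liver (adjusted p = 2.69e-05 and 4.27e-05, edgeR). Psma6 had the next smallest p in both pairs, with differences of -1.32 and -1.19. Psma5 differed by -1.10 and -0.97. Psmb1 and Psmb6 differed by -0.73 and -0.85 in heart minus liver, and Psma3 and Psmg4 by -0.99 and -1.34 in kidney minus liver. Psmb9 differed in both, by -1.09 and -1.33, but with the length-trend offset its heart minus liver difference was -0.55 and not called (adjusted p = 0.146, edgeR), and its kidney minus liver difference was -0.83 (adjusted p = 0.0281, edgeR). Psmb8 (-0.78 in kidney minus liver, adjusted p = 0.0700, edgeR) was not called. Positive differences were called for Psmf1, Psmd11 and Psme3 in heart minus liver and for Psmf1 in kidney minus liver.

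The core and cap genes also ordered by length in the other direction outside liver. Across the 31 constitutive core and cap genes, which share libraries and scaling, Spearman's rho between log2 fold change and transcript length was -0.46 in liver, 0.59 in heart and 0.31 in kidney. The difference between short and long transcripts was -0.13, -0.14 and -0.08 (log2) in ketogenic hearts, against 0.18, 0.07 and 0.12 in chow hearts, apart between the diets as in liver but with the opposite sign. In kidney it was -0.01, -0.08 and -0.12 on the ketogenic diet, against 0.17, -0.03 and 0.09 on chow, with overlap.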

How the data were processed

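Stranded messenger RNA libraries were made from heart, kidney and liver, per the labels' protocols. The submitters' processing notes name bcl2fastq, HISAT2 2.1.0, SAMtools and featureCounts 1.5.0. The authors' deposited values are estimated counts: per the file headers, featureCounts 1.5.0-p1 counted read pairs over exons of the UCSC mm9 annotation with mapping quality of at least 2 and strand setting 2, and split reads with several places or genes into fractions. Of the 49 members, 44 had a non-whole value in at least 1 library, so the authors' splitting of shared reads may affect them, and how much of a member's reads is shared is not known.

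Counts were rounded to whole numbers. Near-identical libraries were summed, which gave 2 ketogenic and 3 chow samples in heart and liver. Per organ, genes were kept by filterByExpr, scaled by TMM and tested with edgeR 4.0.16 (quasi-likelihood, robust) in R 4.3.3, with the Benjamini-Hochberg adjustment over all tested genes and a threshold of 0.05. Organ differences were contrasts in 1 model of 6 groups. All adjusted p-values of genes come from edgeR. Group means of CPM count a summed pair once. Ratios of TPM were tested by exact two-sided permutation over samples. The edgeR diet fit of each organ was tried on simulated counts, and the length-trend offset on simulated liver counts. The pair check, the organ contrasts, the ratio tests and the other alternatives were not tried on simulated data. Alternatives were DESeq2 1.42.0, limma-voom 3.58.1, other scalings and filters, a replicate block, each replicate left out, and a length-trend offset (lowess span 0.3) added after the data were seen.

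Members and lists were chosen with earlier results of these data known. All members may be named, and of each other list up to 4 genes per organ with the smallest adjusted p. The leukocyte markers called, and Lyz2 in liver, are named beyond this rule and were chosen after their values were seen. Differences between organs were named for up to 5 members a pair by smallest p; others named there were chosen after their values were seen. Promoter windows are RefSeq's on GRCm38.p6 and were not mixed with mm9 coordinates. A gene of the ubiquitin supply list is not reported here.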

Additional observations from a re-analysis of the deposited data

Results flagged for a closer look

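Diet effects that differed between organs by a test of the difference itself (edgeR contrast, Benjamini-Hochberg over all tested genes) were flagged. For heart minus liver 27 members differed, and the 5 with the smallest p were Psma7 (-1.58), Psma6 (-1.32), Psmb1 (-0.73), Psmb6 (-0.85) and Psma5 (-1.10), as differences of log2 fold changes. For kidney minus liver 22 members differed, and the 5 with the smallest p were Psma7 (-1.37), Psma6 (-1.19), Psma3 (-0.99), Psma5 (-0.97) and Psmg4 (-1.34). All 7 genes named here had a negative difference in the pair they are named for, so the liver effect was the higher one.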

How the results depend on the processing

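Limits of the data are few samples, a pair of near-identical libraries in heart and in liver, reads split by the authors, and a trend with transcript length in liver and heart. In liver the members higher were 25 to 32 under the other settings and 21 with the length-trend offset. Members lower in liver were 2 with all libraries as separate samples, 2 with the replicate block, 3 with the length-trend offset, and 0 to 1 with a replicate left out. Over all liver genes 6164 of 12947 were called with all libraries separate, 6174 of 12947 with the replicate block and 4846 of 13220 with the length-trend offset. With a replicate left out, ketogenic replicate 3 aside, 3964 to 4759 were called. In heart 1 member was higher with all libraries separate. Heart members lower were 6 with all libraries separate, 8 with total counts as the scale, 2 with the replicate block, 0 with the length-trend offset, and 0 to 8 with a replicate left out. The calls over all heart genes, 1642 of 13609 in the main setting, moved as well. They were 3317 of 13411 with all libraries separate, 1899 of 13609 with total counts and 2732 of 13411 with the replicate block. With the length-trend offset they were 1392 of 13609, and with a replicate left out, ketogenic replicate 3 aside, 459 to 3742. In kidney 1 member was higher in a single model of all groups and 1 lower by DESeq2, and leaving out a replicate gave 0 to 1 higher and 0 to 1 lower. Over all kidney genes 1364 of 15695 were called in the single model, 1886 of 14526 by DESeq2, and 412 to 3402 with a replicate left out. Between heart and kidney 1 member differed with all libraries separate, 1 with the replicate block, and 0 to 1 with a replicate left out. Over all tested genes 842 differed with all libraries separate and 777 with the replicate block. With the length-trend offset 15 members differed between heart and liver and 12 between kidney and liver, where 3313 and 3020 of all tested genes did. The cause of these shifts was not tested. Leaving out ketogenic replicate 3 of heart or of liver left 1 ketogenic sample in that group. Whether the replicate numbers pair samples was not settled. Deviations of same-numbered ketogenic and chow libraries correlated by 0.03, 0.08 and 0.12 in heart, -0.12, 0.05 and -0.18 in kidney, and 0.07, 0.01 and 0.11 in liver. Libraries of unlike number were not compared, and neither were organs, so these values cannot decide it.

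Among 37 single values recomputed under each setting (30 in liver, 4 in heart and 3 in kidney), direction changed for 4, none of them called in both settings. Heart Psmb8 was above 0 with all libraries separate (0.046), limma-voom (0.038), 1 model of all groups (0.014), the replicate block (0.032) and the length-trend offset (0.079), and it ran between -0.093 and 0.19 with a replicate left out. With the length-trend offset kidney Psmb9 was at 0.020, liver Psmb2 at -0.095 and liver Psmb10 at -0.0062. Over all tested members that offset changed the sign of 13 in heart, 5 in kidney and 5 in liver, of which Psmb2 in liver was called without it and none with it. All 78 alternative values of the 9 ratios kept their direction.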
